A study of Caenorhabditis elegans with 12 samples.

Results

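The genes described are 81 genes of *C. elegans* that are named for proteins of the cytosolic ribosome. They were chosen by symbol alone, as *rpl* (large subunit), *rps* (small subunit) or *rla* (stalk of the large subunit) followed by a number. The rule used no measured values, but the set was chosen with earlier results of these data known. The rule by symbol takes in *rpl-24.2*, which is related to an assembly factor, and leaves out ribosomal proteins encoded under other names. Of the 46920 loci in the table, 47 were *rpl* genes, 31 were *rps* genes and 3 were *rla* genes. All 81 are annotated as protein coding in the WBcel235 assembly, and all 81 passed the filter on low counts, so that each was among the 14867 genes tested. They are spread over the genome, with 25 on chromosome I, 10 on II, 18 on III, 18 on IV, 8 on V and 2 on X.

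The cytosolic ribosome translates the messenger RNAs of the nucleus, and is built in the nucleolus from ribosomal RNA and a nearly fixed set of proteins, each usually present once per subunit. The genes for these proteins are among the most highly expressed of growing cells, and are known to be regulated largely together with growth and nutrient supply. Mitochondria carry ribosomes of their own, whose nuclear-encoded proteins come from a separate set of genes.

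RNA was measured in whole L4 animals grown from hatch at 20°C, with 3 libraries in each of 4 groups: *lin-40*(*yth27*) animals on *cco-1* RNAi, the same mutants on bacteria with the empty vector (EV), WT animals (the strain N2) on *cco-1* RNAi, and WT animals on EV. *lin-40* codes for a scaffold subunit of the nucleosome remodeling and deacetylase (NuRD) complex. *yth27* is a point mutation in it from an EMS (ethyl methanesulfonate) mutagenesis screen, so that other mutations of that line cannot be told apart from it here. *cco-1*, now named *cox-5B*, encodes a protein of cytochrome c oxidase, and its knockdown sets off the mitochondrial unfolded protein response. The knockdown bacteria are labelled EV+*cco-1*, and all groups were thus given EV. RNA of all tissues was pooled in each library, so that fewer cells of a type and less RNA per cell cannot be told apart, and the labels do not say whether the 3 libraries of a group came from separate cultures, so that p-values measure only the spread between these libraries.

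The library totals lay between 18553449 and 22538076 counts. Levels are given as CPM, the counts as a share of the library total after scaling with the TMM method (trimmed mean of M values), or, for comparisons between genes, as TPM, which also divides by exon length. *cox-5B* had 177, 224 and 257 CPM in *lin-40*(*yth27*) animals on *cco-1* RNAi, against 413, 425 and 409 CPM on EV, and 143, 144 and 193 CPM in WT animals on *cco-1* RNAi, against 517, 474 and 492 CPM on EV. It thus fell by 0.92 on the log2 scale in the mutants (adjusted p = 0.0187) and by 1.63 in WT animals (adjusted p = 3.8e-04, edgeR with Benjamini-Hochberg adjustment), and the difference between these, 0.71, did not pass (adjusted p = 0.394). The *lin-40*(*yth27*) *cco-1* RNAi replicate 3 library stood apart from the rest: its TMM factor was 0.796, against 0.885 to 1.10 in the other 11 libraries, and its genes other than ribosomal protein genes had a trend of −0.204 log2 CPM for each doubling of exon length, against −0.09 to 0.14 elsewhere. Counts from mitochondrial DNA were 1.49% of this library. They were 1.21% and 1.25% of replicates 1 and 2 of its group, and 0.826% to 1.19% of the libraries of the other groups. The medians and counts of each comparison that rests on *lin-40*(*yth27*) *cco-1* RNAi replicate 3 are also given without that library. Tissue markers were found in every library, with all 34 genes of the intestine, muscle, neuron, hypodermis, germ line and yolk lists above 0 throughout, and 28 of the 31 major sperm protein genes above 0 throughout.

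Ribosomal protein transcripts made up a large part of the messenger RNA pool in every library. They were 28.4%, 29.3% and 33.7% of TPM in *lin-40*(*yth27*) animals on *cco-1* RNAi, and 28.1%, 28.6% and 28.3% in *lin-40*(*yth27*) animals on EV. In WT they were 27.4%, 25.6% and 28.7% on *cco-1* RNAi, and 27.6%, 28.1% and 28.7% on EV. Of the 50 genes with the highest mean TPM, 38 were ribosomal protein genes, as were 63 of the highest 100 and 74 of the highest 200.

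Levels within the set were close to each other. The median of the mean TPM over the 12 libraries was 3683, with quartiles of 2508 and 4859. It was 3753 for the *rpl* genes and 3664 for the *rps* genes. The highest level was that of *rps-8* (mean TPM 6651), followed by *rpl-10* (6540), whose protein joins the large subunit late in its assembly, and *rps-14* (6333), whose protein sits on the platform of the small subunit.

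Only 2 genes lay far below the rest. *rpl-24.2* (WBGene00004437, chromosome I, 9669415 to 9670098), related to the assembly factor of the large subunit known as RSL24D1 in humans, averaged 112 TPM. *rpl-42* (WBGene00004455, chromosome II, 11092713 to 11094022) averaged 2.64 TPM, placed 11051st among 46603 genes with a length, and had between 4 and 56 counts in a library. Over the other 79 genes the highest mean TPM was 12.9 times the lowest, which was that of *rps-28* (514 TPM). The lowest levels after it belonged to *rpl-39* (563), *rps-29* (589), *rla-2* (704) and *rpl-29* (760).

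Among the 79, 4 of the 5 lowest belonged to genes with short transcripts. The exon length of the 81 genes ran from 236 to 1456 bases with a median of 530, against a median of 1365.5 over all genes tested, and 14 of the genes were under 400 bases. The shortest were *rpl-39* (236 bases), whose protein lines the exit tunnel, *rpl-29* (240), *rps-28* (252) and *rps-29* (265). cDNA fragments were selected by size before sequencing, and the part of that step in the low values of short genes was not tested.

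**Figure D1:**
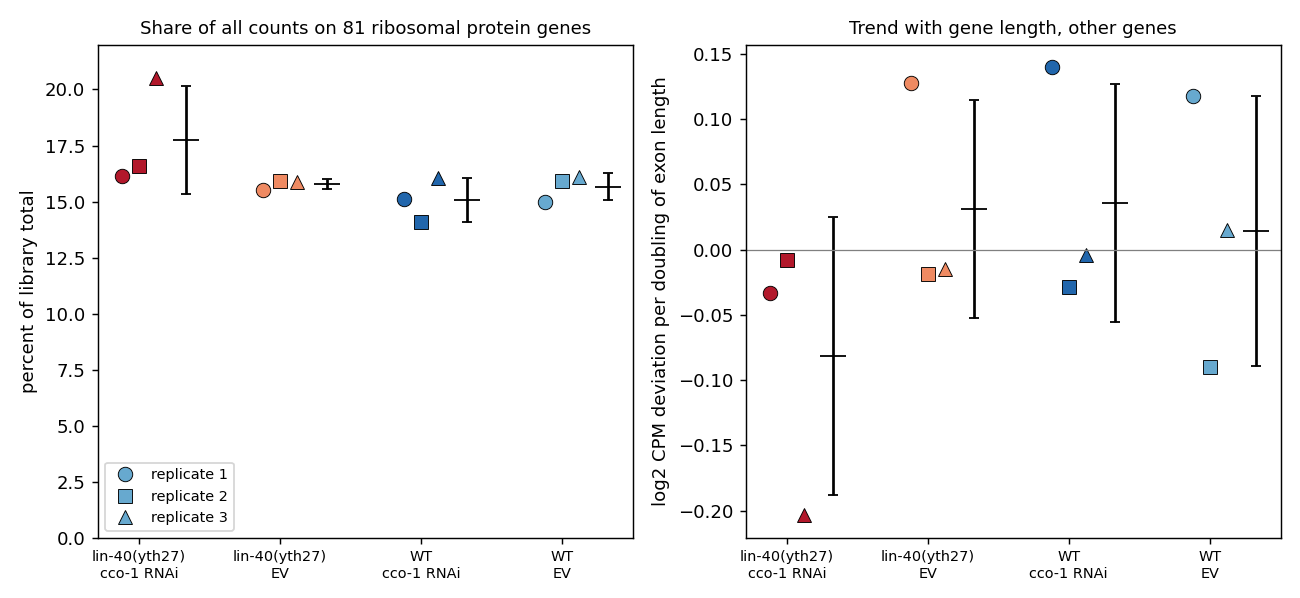
Left, the share of each library's counts on the 81 ribosomal protein genes in percent. Right, the trend of the other genes with exon length in log2 CPM per doubling. Circles, squares and triangles are replicates 1, 2 and 3, and bars are the mean ± SD of 3 libraries. The triangle of *lin-40*(*yth27*) animals on *cco-1* RNAi is the highest on the left, at 20.5%, and the lowest on the right, at −0.204.

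By share of counts, the ribosomal protein genes were highest in *lin-40*(*yth27*) animals on *cco-1* RNAi, where all 3 libraries exceeded the other 9, replicate 1 only narrowly. They took 16.1%, 16.6% and 20.5% of counts there, with a mean of 17.7% ± 2.40 (SD, n = 3), against 15.5%, 15.9% and 15.9% in *lin-40*(*yth27*) animals on EV, with a mean of 15.8% ± 0.232. In WT they took 15.1%, 14.1% and 16.05% on *cco-1* RNAi (mean 15.1% ± 0.976) and 15.0%, 15.9% and 16.1% on EV (mean 15.7% ± 0.595), and these overlap. Without *lin-40*(*yth27*) *cco-1* RNAi replicate 3, the mean of that group was 16.4%. As this is a sum over genes chosen together, no test is given for it. Replicate 1 of that group, at 16.14%, was just above WT EV replicate 3, at 16.08%. By share of TPM it was not separated. It had 28.4%, below *lin-40*(*yth27*) EV replicate 2 (28.6%), WT EV replicate 3 (28.7%) and WT *cco-1* RNAi replicate 3 (28.7%). Replicates 2 and 3 stayed above the other 9. After TMM scaling, the median deviation of replicate 1 from the genes' means was −0.12 on the log2 scale, against −0.10, −0.09 and −0.11 in these mutants on EV.

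Within groups, the spread was uneven. The median coefficient of variation of the 81 genes over the 3 libraries was 31.3% in *lin-40*(*yth27*) animals on *cco-1* RNAi, 4.10% in these mutants on EV, 10.1% in WT animals on *cco-1* RNAi and 4.72% in WT animals on EV. Over replicates 1 and 2 alone it was 10.7% in *lin-40*(*yth27*) animals on *cco-1* RNAi. The *lin-40*(*yth27*) *cco-1* RNAi replicate 3 library was the highest of the 12 for 80 of the 81 genes, against 14.7% of all genes tested, and its median deviation from the genes' means was 0.72 on the log2 scale. Replicates 1 and 2 of that group were at −0.12 and 0.10.

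At the other end, WT *cco-1* RNAi replicate 2 was the lowest of the 12 libraries for 61 of the 81 genes, against 15.6% of all genes tested. Its median deviation was −0.32, while the other 2 libraries of that group were at −0.07 and −0.09. The same library had the highest sums of major sperm proteins (3798 CPM) and of germ line markers (893 CPM) of the 12. Their part in its low values was not tested.

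**Figure D2:**
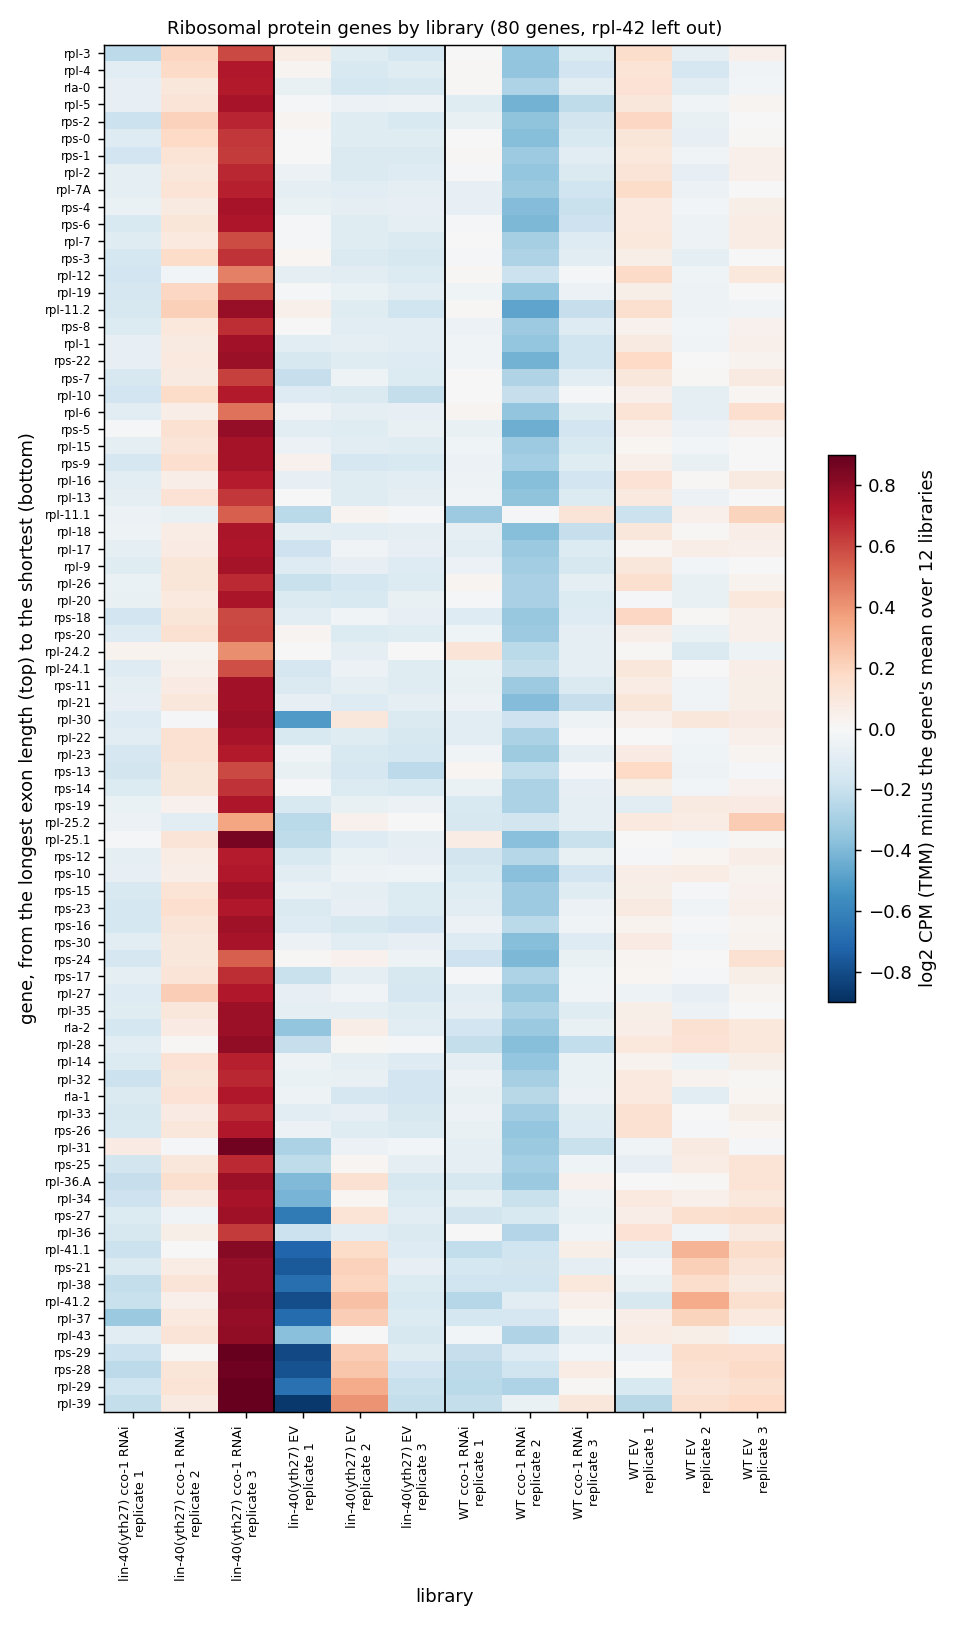
Log2 CPM of 80 ribosomal protein genes minus the gene's mean over the 12 libraries, in colour from −0.9 (blue) to 0.9 (red). Genes run from the longest exons at the top to the shortest at the bottom, and *rpl-42* is left out for its low counts. The *lin-40*(*yth27*) *cco-1* RNAi replicate 3 column is red throughout, the WT *cco-1* RNAi replicate 2 column is mostly blue, and the *lin-40*(*yth27*) EV replicate 1 column is blue for the short genes at the bottom.

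A further pattern concerned the 14 short genes, namely *rpl-29*, *rpl-34*, *rpl-36*, *rpl-36.A*, *rpl-37*, *rpl-38*, *rpl-39*, *rpl-41.1*, *rpl-41.2*, *rpl-43*, *rps-21*, *rps-27*, *rps-28* and *rps-29*. The *lin-40*(*yth27*) EV replicate 1 library was the lowest of the 12 for 13 of them, with a median deviation of −0.69. In the same library, 3 of the 66 longer ribosomal protein genes were at their lowest and the median deviation was −0.07. Among the other genes tested, 24.3% of the 507 with exons under 400 bases had their lowest value in this library (median deviation −0.34), against 6.58% of the 14188 longer ones (median 0.04).

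The values of *rpl-39* show the size of this. It had 99.1, 122 and 215 CPM in *lin-40*(*yth27*) animals on *cco-1* RNAi, against 63.1, 152 and 99.3 CPM in *lin-40*(*yth27*) animals on EV. In WT it had 99.0, 111 and 123 CPM on *cco-1* RNAi, against 96.9, 127 and 131 CPM on EV. The groups of each genotype overlap, and the EV libraries of the mutants span a wide range. *rps-29* was alike, with 118.6, 137 and 266 CPM in *lin-40*(*yth27*) animals on *cco-1* RNAi and 77.6, 159 and 126 CPM on EV.

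The first comparison was of *cco-1* RNAi with EV in WT. Nearly all ribosomal protein genes were slightly lower on *cco-1* RNAi, but none passed the test. The log2 fold change was negative for 80 of the 81 and its median was −0.18, against 0.06 over all genes tested. It ran from −0.38 for *rpl-28* to 0.14 for *rpl-42*. With edgeR's quasi-likelihood test and Benjamini-Hochberg adjustment (BH) over all genes, 0 of the 81 had an adjusted p under 0.05, against 6.25% of all genes tested. None had an unadjusted p under 0.05 (11.7% of all genes tested were lower at that level). DESeq2 called 0 of the 81 as well, and 1427 of 15004 genes in all.

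The gene with the lowest p was *rpl-28* (WBGene00004442, chromosome V, 12727593 to 12728112), which codes for a protein of the large subunit found in animals but not in budding yeast, and whose promoter drives a reporter in the study. It had 790.3, 701 and 786 CPM in WT animals on *cco-1* RNAi, against 977, 1001 and 976 CPM in WT animals on EV. All 3 *cco-1* RNAi libraries were below all 3 EV libraries. The log2 fold change of −0.38 (standard error 0.20) had an adjusted p of 0.326 (edgeR with BH). *rpl-25.2*, whose protein lies near the mouth of the exit tunnel, had 813, 801 and 846 CPM on *cco-1* RNAi, against 952, 939 and 1053 CPM on EV, which again did not overlap (log2 fold change −0.26, standard error 0.14, adjusted p = 0.335 with edgeR and BH).

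Further genes with low p were *rps-24*, *rps-18*, *rps-10*, *rpl-18* and *rpl-5*, the last of which codes for a protein that carries the small ribosomal RNA of the large subunit into the particle. Their log2 fold changes were −0.27, −0.27, −0.27, −0.28 and −0.28, with standard errors of 0.17 to 0.19. *rla-2*, for an acidic stalk protein that helps to recruit the elongation factors, was also among the lowest, at −0.28. At the other end stood *rpl-24.2* (−0.01) and *rpl-10* (−0.06).

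Counted by non-overlap, 40 of the 81 genes had all 3 *cco-1* RNAi libraries below all 3 EV libraries in WT, against 13.3% of all genes tested, and 0 had them above, against 11% of all genes. This count rests on the scaling: with library totals in place of TMM it was 9 of 81, against 8.29% of all genes, and the median was −0.05. The median of all genes shifted likewise, to 0.19, so that relative to it the ribosomal protein genes were at −0.25 under both scalings. Without WT *cco-1* RNAi replicate 2 the median was −0.13, which is −0.15 relative to all genes.

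Markers of the hypodermis summed to 1673 to 2391 CPM in WT animals on *cco-1* RNAi and 2844 to 3657 CPM in WT animals on EV, without overlap. With edgeR and BH 1 of the 5, *dpy-7*, fell (log2 fold change −1.17), and so did 1 of 5 muscle genes, *mup-2*, and 1 of 7 germ line genes, *glh-1*. The other germ line genes did not share this direction, since 5 of the 7 were positive and the median of the list was 0.49. Of the 12 fits that leave out a library, *mup-2* missed the threshold in 10, *glh-1* in 6 and *dpy-7* in 0. The part of these markers in the lower values of ribosomal protein genes was not tested.

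The WT values also depend on a mutant library through the shared estimate of spread. When *lin-40*(*yth27*) *cco-1* RNAi replicate 3 was left out of the fit, 5 of the 81 genes were lower in WT animals on *cco-1* RNAi at an unadjusted p under 0.05 (11.24% of all genes), namely *rpl-28*, *rps-10*, *rpl-18*, *rpl-25.2* and *rpl-5*. The lowest adjusted p was then 0.0643, for *rpl-28* (edgeR with BH), whose log2 fold change was −0.36.

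In *lin-40*(*yth27*) the ribosomal protein genes lay on the other side, higher on *cco-1* RNAi than on EV, again with none past the test. The log2 fold change was positive for 80 of 81 and its median was 0.38, against −0.03 over all genes tested. With edgeR and BH 0 of the 81 passed, against 1.16% of all genes, and with DESeq2 0 of the 81, against 391 of 15004 genes. At an unadjusted p under 0.05, 9 were higher, against 7.24% of all genes. All 3 *cco-1* RNAi libraries were above all 3 EV libraries for 11 genes, or 13.6%, against 11.09% of all genes tested, a share near the background. With library totals this count was 24, against 5.91% of all genes.

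The lowest p was that of *rpl-25.1* (WBGene00004438, chromosome X, 4715178 to 4715796), the partner of *rpl-25.2*. It had 648, 708 and 1177 CPM in *lin-40*(*yth27*) animals on *cco-1* RNAi, against 556, 602 and 613 CPM on EV. These groups did not overlap, and replicate 3 was far above the other 2. The log2 fold change was 0.52 (standard error 0.20, adjusted p = 0.336 with edgeR and BH), and without replicate 3 it was 0.21. *rpl-26*, *rpl-43*, *rpl-22*, *rpl-31* and *rps-17* followed, with log2 fold changes of 0.43, 0.49, 0.44, 0.48 and 0.41. *rps-29* and *rpl-29* had the highest besides *rpl-25.1*, at 0.52 and 0.51, and standard errors of 0.29.

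Most of this difference lay in replicate 3. Without that library the median was 0.10, and 78 of the 81 genes were still above 0. However, 0 had an unadjusted p under 0.05, while 4.37% of all genes were higher at that level. The lowest adjusted p was 0.911 (edgeR with BH). Both remaining *cco-1* RNAi libraries were above all 3 EV libraries for 11 genes, against 14.03% of all genes tested. The same library had the highest sum of elongation factors (40482 CPM, against 24045 to 32663 in the other 11) and of neuron markers (266 CPM, against 198 to 242). Removal of the trend with gene length with all 12 libraries kept, chosen after the data were seen, gave a median of 0.18. At an unadjusted p under 0.05, 0 of the 81 were then higher, against 5.85% of all genes. The sum of yolk protein genes was 619 to 2265 CPM in *lin-40*(*yth27*) animals on *cco-1* RNAi and 6262 to 8978 CPM in these mutants on EV, without overlap. The median log2 fold change of the 6 yolk genes was −3.04, and all 6 were lower at an unadjusted p under 0.05, but 0 passed the adjusted test (lowest adjusted p = 0.0781, edgeR with BH). Intestine markers summed to 9644 to 14716 CPM on *cco-1* RNAi and 7569.6 to 9016 CPM on EV, also without overlap, with 0 of 6 genes past the test. The part of these in the result was not tested. A fit with a replicate block by the numbers in the short sample names, which not all libraries share, called 14 genes here. It called 16 in the interaction, and 13 of each were among the 14 short genes. The number of all genes that this fit called is not given here, so these counts lack a background.

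*rpl-42* and *rpl-24.2*, the genes expressed least, stood apart here too. *rpl-42* was the gene that went the other way, with 1.81, 1.11 and 1.52 CPM in *lin-40*(*yth27*) animals on *cco-1* RNAi, against 1.95, 1.85 and 2.59 CPM on EV (log2 fold change −0.52, standard error 0.62, adjusted p = 0.807 with edgeR and BH). It was the only gene of the 81 for which all *cco-1* RNAi libraries were below all EV libraries in this genotype, on 24 to 56 counts in a library. *rpl-24.2* had 59.4, 59.2 and 77.5 CPM on *cco-1* RNAi, against 57.8, 54.8 and 57.9 CPM on EV. The lowest log2 fold changes after *rpl-42* were those of *rpl-25.2* (0.15) and *rps-24* (0.19).

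**Figure D3:**
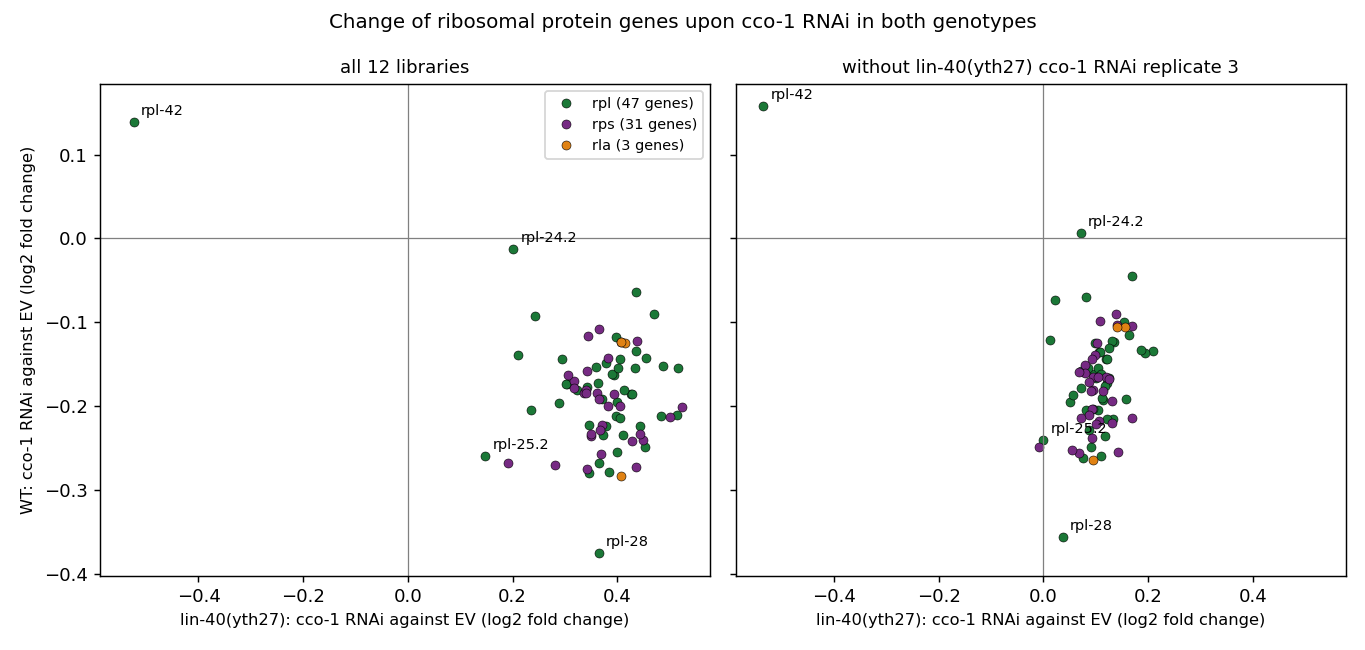
Log2 fold change of each ribosomal protein gene upon *cco-1* RNAi in *lin-40*(*yth27*) (horizontal) and in WT (vertical), with all 12 libraries (left) and without *lin-40*(*yth27*) *cco-1* RNAi replicate 3 (right). Colours mark *rpl*, *rps* and *rla* genes. On the left most genes lie between 0.2 and 0.5 on the horizontal axis, and on the right they move toward 0 while the vertical values hardly move.

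The difference between these changes, the interaction of genotype and *cco-1* RNAi, asks whether the response of the ribosomal protein genes depended on *lin-40*. Its median was 0.56 on the log2 scale, against −0.04 over all genes tested, and it was positive for 80 of 81. With edgeR and BH 0 of the 81 passed, as did 0% of all genes tested. DESeq2 called 0 of the 81 and 55 genes in all. At an unadjusted p under 0.05 there were 22 of the 81, or 27.2%, against 6.84% of all genes tested. With the trend with gene length removed, an alternative chosen after the data were seen, the median was 0.41. At the same level 0 of the 81 were then higher, against 6.75% of all genes.

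The highest value was that of *rpl-28*, at 0.74 (standard error 0.28, adjusted p = 0.415 with edgeR and BH; 0.39 without *lin-40*(*yth27*) *cco-1* RNAi replicate 3), whose change in *lin-40*(*yth27*) rested on 857, 923 and 1594 CPM on *cco-1* RNAi, against 795, 921 and 905 CPM on EV. These overlap: replicate 1 on *cco-1* RNAi lay within the range of the EV libraries and replicate 2 just above it. *rps-29* (0.73) and *rpl-29* (0.72) followed in size, and *rps-22* (0.71), *rpl-18* (0.66), *rps-5* (0.68), *rpl-31* (0.70) and *rpl-21* (0.65) in p. The lowest were *rpl-42* (−0.66, standard error 0.88), *rpl-24.2* (0.21) and *rpl-11.1* (0.34).

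Without *lin-40*(*yth27*) *cco-1* RNAi replicate 3 the median interaction was 0.27, 2 genes (*rpl-28* and *rpl-18*) had an unadjusted p under 0.05, against 3.81% of all genes, and the lowest adjusted p was 0.72 (edgeR with BH). With library totals the median was 0.24, while that of all genes was −0.31, which leaves 0.55 relative to all genes, against 0.60 with TMM.

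The genotypes were next compared on EV. The ribosomal protein genes were a little lower in *lin-40*(*yth27*), and none passed the test. The log2 fold change was negative for 79 of 81, with a median of −0.13, against 0.03 over all genes. With edgeR and BH 0 of the 81 passed, against 0.377% of all genes tested. None was lower at an unadjusted p under 0.05, against 7.43% of all genes, and DESeq2 called 0 of the 81, against 451 of 16172 genes. These p-values also depend on the other groups through the shared estimate of spread. When *lin-40*(*yth27*) *cco-1* RNAi replicate 3 was left out of the fit, the median was −0.15 and the lowest adjusted p was 0.342 (edgeR with BH). At an unadjusted p under 0.05, 0 of the 81 were then lower, against 9.2% of all genes.

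The lowest adjusted p was 0.554 (edgeR with BH), for *rpl-25.2*, with 757, 921 and 899 CPM in *lin-40*(*yth27*) and 952, 939 and 1053 CPM in WT. *rpl-41.1*, *rps-27* and *rpl-41.2* had the lowest log2 fold changes, of −0.31, −0.29 and −0.29, and all 3 are short genes. *rps-27* had 264, 445 and 384 CPM in *lin-40*(*yth27*) animals on EV, against 427, 452 and 456 CPM in WT animals on EV, and the low first value is from the library in which short genes were low. The 14 short genes had a median of −0.25 and the 66 longer ones (*rpl-42* left out) a median of −0.13. The highest were *rpl-42* (0.56), *rpl-24.2* (0.02) and *rpl-27* (−0.05). *rpl-34*, *rpl-36* and *rpl-26* were also among the 6 genes with the lowest p, at −0.24, −0.20 and −0.20.

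For 37 of the 81 genes all 3 *lin-40*(*yth27*) libraries were below all 3 WT libraries on EV, against 13.1% of all genes tested. With library totals this was so for 1 gene, against 6.42% of all genes, and 4 lay above, against 21.4% of all genes. The median was then 0.0005, so that its direction depends on the scaling. Relative to the median of all genes it was −0.17 with TMM and −0.16 with library totals. Without the trend with gene length, an alternative chosen after the data were seen, the median was −0.25 and 3 genes were lower at an unadjusted p under 0.05, against 13.2% of all genes. The sum of yolk protein genes, which mark adults, was 6262 to 8978 CPM in *lin-40*(*yth27*) animals on EV and 673 to 3886 CPM in WT animals on EV, with none of the 6 genes past the test. Intestine markers summed to 7569.6 to 9016 CPM in *lin-40*(*yth27*) animals on EV and 9909 to 13659 CPM in WT animals on EV, without overlap. All 6 intestine genes were lower in the mutants, and 0 passed the test. The part of the yolk and intestine genes in these values was not tested.

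On *cco-1* RNAi the direction was the opposite. The genes were higher in *lin-40*(*yth27*) than in WT, with a median log2 fold change of 0.43, against −0.02 over all genes, and 80 of 81 positive. With edgeR and BH 0 of the 81 passed, against 0.626% of all genes tested, and DESeq2 called 0 of the 81, against 391 of 16172 genes. At an unadjusted p under 0.05, 42 of the 81 were higher, or 51.9%, against 9.91% of all genes. With the trend with gene length removed, an alternative chosen after the data were seen, the median was 0.15. At the same level 0 of the 81 were then higher, against 7.04% of all genes. All 3 *lin-40*(*yth27*) libraries were above all 3 WT libraries for 10 genes, or 12.3%, against 9.85% of all genes, a share near the background. With library totals this count was 30, against 6.44% of all genes.

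The lowest p was that of *rps-5* (WBGene00004474, chromosome IV, 11110157 to 11111045), whose protein lies at the exit site of the small subunit. It had 2661, 2957 and 4642 CPM in *lin-40*(*yth27*) animals on *cco-1* RNAi, against 2559, 1980.0 and 2379 CPM in WT animals on *cco-1* RNAi. The log2 fold change was 0.57 (standard error 0.19, adjusted p = 0.217 with edgeR and BH), and without replicate 3 of these mutants it was 0.26. *rpl-5* had 3146, 3587 and 5517 CPM in *lin-40*(*yth27*), against 3068, 2460.3 and 2818 CPM in WT, which did not overlap either.

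*rpl-31*, *rpl-28*, *rps-10* and *rpl-18* had log2 fold changes of 0.57, 0.57, 0.50 and 0.52. The lowest were *rpl-42* (−0.10), *rpl-12* (0.17), whose protein forms the base of the stalk, and *rpl-25.2* (0.21). Without *lin-40*(*yth27*) *cco-1* RNAi replicate 3 the median was 0.12, with 73 of 81 genes positive. Of the 81, 0 had an unadjusted p under 0.05, while 5.40% of all genes were higher at that level. The lowest adjusted p was 0.609 (edgeR with BH). Both remaining *lin-40*(*yth27*) libraries were above all 3 WT libraries for 10 genes, against 12.9% of all genes. The comparison shares its libraries with those above, and no correlation between them is given.

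**Figure D4:**
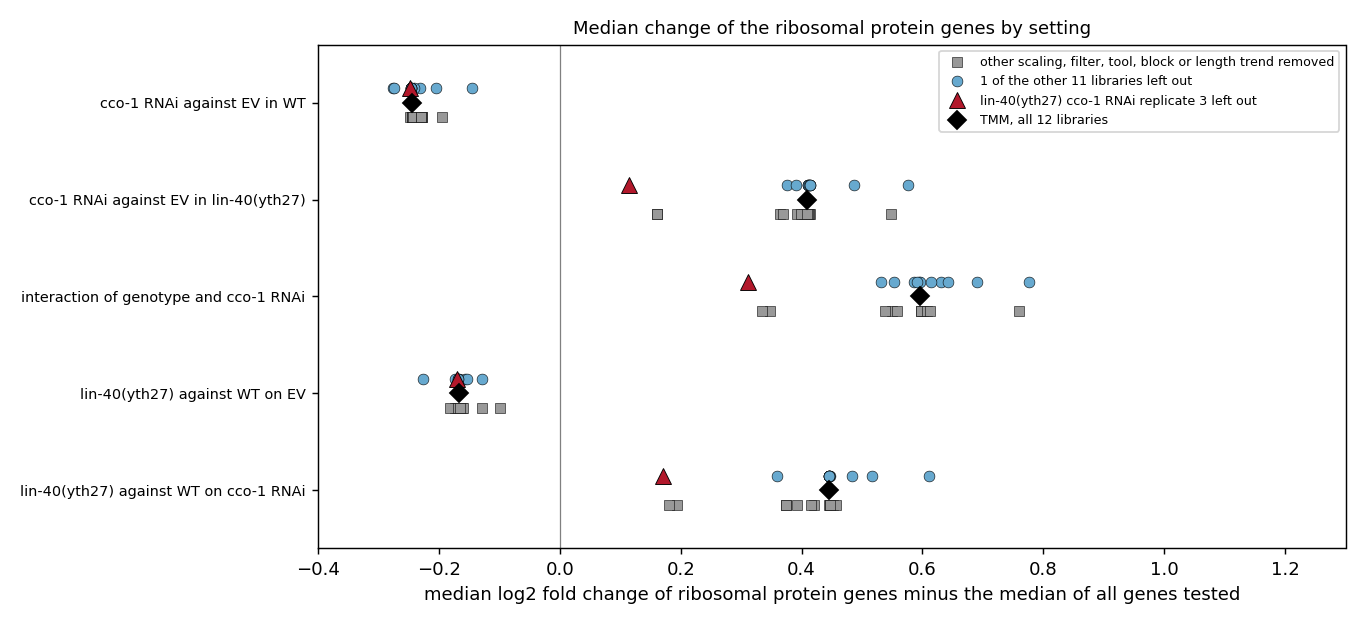
Median log2 fold change of the ribosomal protein genes minus the median of all genes tested, for the 5 comparisons. Diamonds use TMM and all 12 libraries, circles leave out 1 of the other 11 libraries, red triangles leave out *lin-40*(*yth27*) *cco-1* RNAi replicate 3, and squares are the other settings. In the 3 comparisons with *lin-40*(*yth27*) animals on *cco-1* RNAi the triangle is the value nearest to 0, and no value crosses 0.

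By role, the stalk genes had fold changes close to the median of the set, apart from *rla-2* in WT. *rla-0*, which codes for the core of the stalk, had 5246, 5922 and 9014 CPM in *lin-40*(*yth27*) animals on *cco-1* RNAi and 5247, 4927 and 4974 CPM on EV, and 5557, 4533 and 5128 CPM in WT animals on *cco-1* RNAi and 6017, 5142 and 5426 CPM on EV. Its log2 fold change upon *cco-1* RNAi was 0.41 in *lin-40*(*yth27*) and −0.12 in WT. Those of *rla-1* were 0.41 and −0.12, and those of *rla-2* were 0.41 and −0.28, in the same order. None passed the test. Without *lin-40*(*yth27*) *cco-1* RNAi replicate 3 the values in the mutants were 0.15 for *rla-0*, 0.14 for *rla-1* and 0.09 for *rla-2*.

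The medians of both subunits were close to each other as well. The median log2 fold change upon *cco-1* RNAi was 0.39 for *rpl* and 0.36 for *rps* genes in *lin-40*(*yth27*), and −0.18 and −0.20 in WT. The mutant medians without *lin-40*(*yth27*) *cco-1* RNAi replicate 3 were 0.11 for *rpl* and 0.10 for *rps* genes. The ratio of the summed counts of *rps* to *rpl* genes stayed between 0.713 and 0.732 in all 12 libraries. Its group means were 0.721 in *lin-40*(*yth27*) animals on *cco-1* RNAi, 0.723 in these mutants on EV, 0.716 in WT animals on *cco-1* RNAi and 0.719 in WT animals on EV, with SDs of 0.00433 to 0.00846. *rpl-7A*, the other gene whose promoter drives a reporter of the study, had 3027, 2539.9 and 2824 CPM in WT animals on *cco-1* RNAi and 3583, 3081 and 3202 CPM in WT animals on EV (log2 fold change −0.23, standard error 0.19, adjusted p = 0.523 with edgeR and BH). Its numbered neighbour *rpl-7*, which codes for a different protein, was at 0.30 in *lin-40*(*yth27*) and −0.17 in WT, and *rpl-36* and *rpl-36.A*, also different proteins, were at 0.36 and 0.41 in *lin-40*(*yth27*) and at −0.15 and −0.18 in WT. Without replicate 3 of the mutants on *cco-1* RNAi, the *lin-40*(*yth27*) values were 0.09 for *rpl-7* and 0.11 for both *rpl-36* and *rpl-36.A*.

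For pairs of genes whose symbols share a number, the ratio of counts within a library does not depend on the scaling. The counts of *rpl-24.1*, for the ribosomal protein itself, over those of *rpl-24.2*, with no correction for length, gave 33.03, 37.1 and 40.9 in *lin-40*(*yth27*) animals on *cco-1* RNAi and 33.2, 37.3 and 34.1 on EV. In WT the ratio was 32.6, 37.4 and 36.7 on *cco-1* RNAi and 39.1, 40.2 and 39.3 on EV. The WT EV libraries were thus above all 3 WT *cco-1* RNAi libraries and above all 3 *lin-40*(*yth27*) EV libraries. Each of these differences had an exact permutation p of 0.1 (two-sided, n = 3 each), the smallest that 3 against 3 allows, and 0.533 after BH adjustment over the 16 ratios compared.

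The ratio of *rpl-25.1* to *rpl-25.2* was higher in all 3 *cco-1* RNAi libraries of *lin-40*(*yth27*) than in its EV libraries. It was 0.747, 0.842 and 1.03 on *cco-1* RNAi, against 0.734, 0.653 and 0.682 on EV, which do not overlap, also when replicate 3, at 1.03, is left out (exact permutation p with all libraries of 0.1, two-sided, and 0.533 after BH adjustment). In WT it was 0.841, 0.627 and 0.671 on *cco-1* RNAi and 0.687, 0.682 and 0.623 on EV, which do. *rpl-11.1* and *rpl-11.2*, whose protein travels with that of *rpl-5*, had ratios of 0.312 to 0.539 over the 12 libraries, and no pair of groups was separated.

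The highest value of this ratio, 0.539, was in WT *cco-1* RNAi replicate 2, the library with the most major sperm protein RNA, and the part of its make-up was not tested. *rpl-41.1* and *rpl-41.2* lie about 1 kilobase apart on chromosome I and code for the smallest ribosomal protein, and their counts are not whole numbers in the table, as for 16 of the 81 genes. Their ratio stayed between 0.875 and 0.990 in every library. How reads shared by near-identical copies were assigned was not tested, so this ratio is uncertain.

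**Figure D5:**
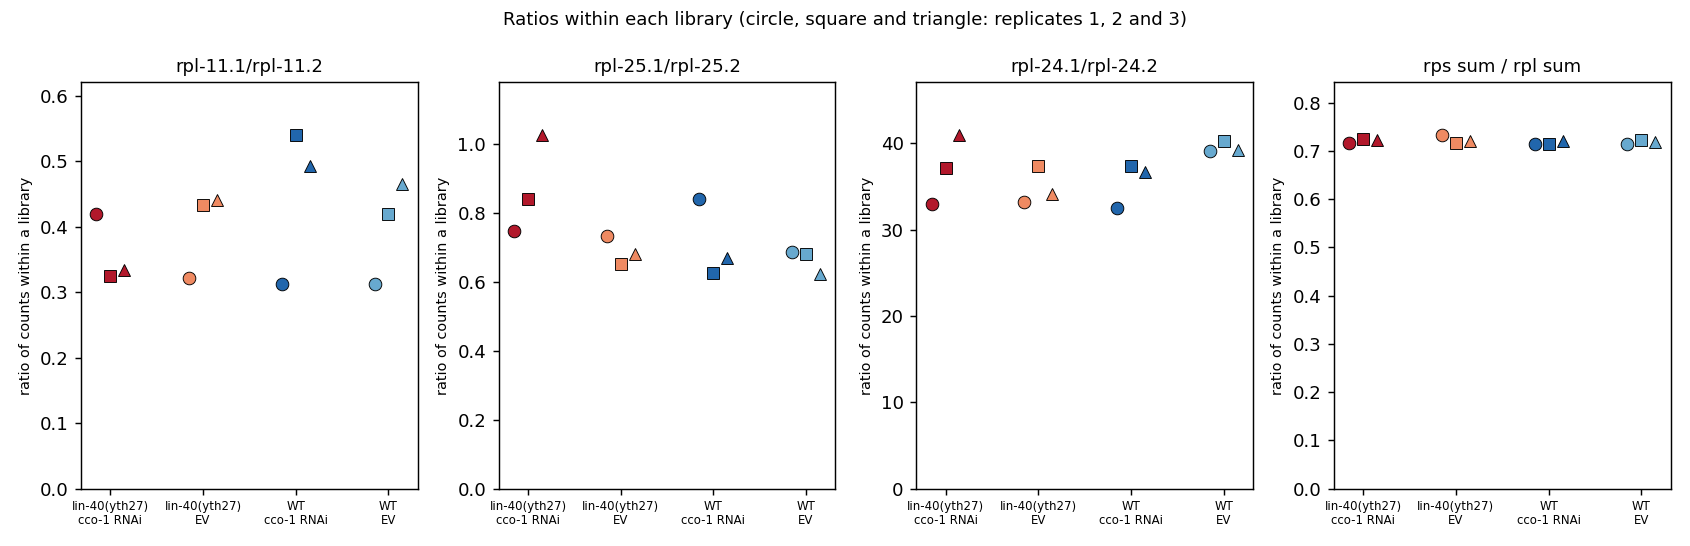
Ratios of counts within each library for 3 pairs of genes with a shared number and for the sums of *rps* and *rpl* genes, by group, with circles, squares and triangles for replicates 1, 2 and 3. All axes start at 0. The WT EV points of *rpl-24.1* over *rpl-24.2* lie together at 39.1 to 40.2, and the *rps* to *rpl* ratio is nearly level across all groups.

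Genes with related functions differed from the ribosomal protein genes in places. The ubiquitin fusion genes *ubl-1* and *ubq-2*, which carry ribosomal proteins but not the symbols used here, were close to the set, with medians of 0.39 upon *cco-1* RNAi in *lin-40*(*yth27*) and −0.19 in WT. The mutant median was 0.11 without *lin-40*(*yth27*) *cco-1* RNAi replicate 3. The 26 genes of ribosome assembly and ribosomal RNA synthesis had a median of −0.10 in *lin-40*(*yth27*), where 0 passed the test, and of −0.08 without replicate 3 of the mutants on *cco-1* RNAi. In WT their median was −0.17, and with edgeR and BH 2 were lower and 1 was higher.

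The genes that fell in WT were *fib-1*, for the nucleolar methyltransferase fibrillarin, and *nol-58*, for a protein of the same particle. *fib-1* had 439, 419 and 449 CPM in WT animals on *cco-1* RNAi, against 673, 591 and 609 CPM on EV (log2 fold change −0.52, standard error 0.14, adjusted p = 0.0485 with edgeR and BH). *nol-58* fell by 0.55 on the log2 scale (adjusted p = 0.0340), and *lpd-7*, for a protein of large subunit assembly, rose by 0.51 (adjusted p = 0.0269, edgeR with BH for both). These calls are close to the threshold: of the 12 fits that leave out a library, *fib-1* missed it in 10, *nol-58* in 9 and *lpd-7* in 5.

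Mitochondrial ribosomal protein genes, 69 of which were tested, had a median of 0.27 upon *cco-1* RNAi in *lin-40*(*yth27*) and −0.07 in WT. With edgeR and BH, *mrps-11* rose upon *cco-1* RNAi in *lin-40*(*yth27*) (0.60, adjusted p = 0.0419) and in WT (0.47, adjusted p = 0.0455), and *mrps-14* rose in *lin-40*(*yth27*) (0.74, adjusted p = 0.0361). Each missed the threshold in 8 to 10 of the 12 fits that leave out a library. Without *lin-40*(*yth27*) *cco-1* RNAi replicate 3 the mutant median was 0.18, and neither *mrps-11* (0.49, adjusted p = 0.105) nor *mrps-14* (0.62, adjusted p = 0.135, edgeR with BH) passed in *lin-40*(*yth27*). No gene of the cytosolic set passed in any of the 5 comparisons without a replicate block.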

How the data were processed

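Poly(A) RNA of L4 animals was sequenced in paired ends after TruSeq library preparation. The authors deposited 1 table for the 12 libraries, whose values were taken to be expected counts per gene, not normalized. The sources do not name its unit, which was read from the values (mostly whole, the rest with decimals, with totals that differ) and from the naming of RSEM. Reads had been trimmed with SeqPrep and Sickle and aligned with TopHat. The genome build used for counting is not given in the sources used here. Before testing, the deposited expected counts were rounded. Gene names and exon lengths (union of exons) came from a reference annotation of WBcel235, in which 46603 of 46778 WormBase IDs were found.

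All 12 libraries entered 1 edgeR fit (R 4.3.3, edgeR 4.0.16) of the 4 groups after filterByExpr and TMM scaling, followed by quasi-likelihood tests of 5 comparisons and Benjamini-Hochberg adjustment over all 14867 genes (threshold 0.05). DESeq2 1.42.0 was an alternative, beside other scalings, filters, a threshold of 0.01, replicate blocks and each library left out. The script was tested on simulated data. Named genes were, in each comparison, the 6 with the lowest p and the 3 highest and 3 lowest fold changes, the 3 highest and lowest by TPM, *rpl-28*, *rpl-7A*, the stalk genes and gene pairs. Members and lists were chosen with earlier results of these data known. Library totals were 18553449 to 22538076 counts, and the common biological coefficient of variation over all genes tested was 26.1%. The standard errors of the 3 against 3 comparisons had a median of about 0.19 over the 81 genes (log2). They rest on an estimate of spread shared by all 4 groups, and so do not measure the spread of the compared groups alone.

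Libraries with the same title number deviated together between EV and *cco-1* RNAi in WT (r of deviations from group means over genes 0.723, 0.588 and 0.288) and between genotypes on EV (0.467, 0.278 and 0.169), but not in *lin-40*(*yth27*) (−0.324, −0.192 and −0.113) or between genotypes on *cco-1* RNAi (−0.376, −0.216 and −0.168). The numbers in the short sample names pair other libraries of *lin-40*(*yth27*). By them, r was 0.29 and −0.113 between EV and *cco-1* RNAi in *lin-40*(*yth27*), and −0.426 and 0.169 between genotypes on EV. The block by title number changed no call among the 81 genes.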

Additional observations from a re-analysis of the deposited data

How the results depend on the processing

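The direction of the medians held in every setting for the comparisons within each genotype, the interaction and the genotypes on *cco-1* RNAi, but for the genotypes on EV it was 0.0005 with library totals and −0.25 without the trend with gene length, chosen after the data were seen. Leaving out each library in turn gave medians of 0.10 to 0.56 for *cco-1* RNAi in *lin-40*(*yth27*), −0.22 to −0.13 in WT, 0.27 to 0.76 for the interaction, −0.19 to −0.12 for the genotypes on EV and 0.12 to 0.60 on *cco-1* RNAi, where 0.10, 0.27 and 0.12 are the values without *lin-40*(*yth27*) *cco-1* RNAi replicate 3, and 0 genes passed each time. The interaction median was 0.24 with library totals. The genotype median on *cco-1* RNAi was 0.15 without the trend with gene length and 0.16 without it and with the replicate block by title number, both chosen after the data were seen. With the replicate block by title number the medians were 0.33 in *lin-40*(*yth27*), −0.19 in WT, 0.53 for the interaction, −0.13 on EV and 0.38 on *cco-1* RNAi, with 0 genes past the threshold.

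With a replicate block by the numbers in the short sample names, fitted within each genotype, which in *lin-40*(*yth27*) leaves EV replicate 2 and *cco-1* RNAi replicate 1 without a partner, 14 ribosomal protein genes passed in *lin-40*(*yth27*) and 16 in the interaction. Of each, 13 were among the 14 with exons under 400 bases. The number of all genes that this fit called is not given here, so these counts lack a background. In the *lin-40*(*yth27*) EV libraries with a partner, replicates 1 and 3, the short genes had median deviations of −0.69 and −0.13. In the partners on *cco-1* RNAi, replicates 2 and 3, the medians were 0.08 and 0.79. Without a partner they were 0.20 on EV and −0.20 on *cco-1* RNAi. The part of this in the calls was not tested. Of 4955 values of the 40 named genes under alternatives, 4935 stayed on the same side of the threshold, and the other 20 passed with this block only. The sign was the opposite one in 66 of the 4955, none of them past the threshold. The mean share of counts lay between 16.4% and 18.5% in *lin-40*(*yth27*) animals on *cco-1* RNAi, 15.7% and 15.9% on EV, 14.6% and 15.6% in WT animals on *cco-1* RNAi and 15.5% and 16.01% on EV when a library was left out.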
